A study of Mus musculus with 22 samples.

Results

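The comparison described here set clodronate liposomes against PBS liposomes in sedentary mice, and took 11 of the 22 mice of the study. They were chosen by their labels alone: activity Control with clodronate liposomes (5 mice) and activity Control with PBS liposomes (6 mice). All 11 were female C57BL/6J mice, aged 7 to 8 weeks, that were housed for 2 weeks with the fixed hub of a running wheel but without the wheel. Each then received 100000 EO771 mouse mammary cancer cells carrying firefly luciferase in the left mammary gland 4. The liposomes were injected into a vein 24 h before and again at engraftment, and the gland was collected 24 h after engraftment. The PBS mice therefore shared the engraftment, the hub and the liposome itself, and differed in what the liposome held. The other 11 mice had the same treatments with a turning wheel (5 clodronate, 6 PBS). Their values are given below where the sedentary difference is set against theirs. They also entered the main limma fit, so the sedentary SE and p-values rest on a spread estimated over all 4 groups. RNA came from the whole gland with its tumor cells, so a transcript could come from fat, epithelium, stroma, immune cells or engrafted cells, and in such bulk samples fewer cells of a type and less RNA per cell cannot be told apart.

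Clodronate is a bisphosphonate that kills the phagocytes that take up its liposomes, which is why it is used to deplete macrophages. In fat, macrophages lie around vessels and between adipocytes, where they take up debris, lipid and iron. The mammary gland of a young female mouse is largely a fat pad threaded with epithelial ducts, and its adipocytes can make fatty acids from glucose. In that pathway citrate leaves the mitochondrion, ATP citrate lyase (Acly) splits it to acetyl-CoA, acetyl-CoA carboxylase (Acaca) makes malonyl-CoA, fatty acid synthase (Fasn) builds palmitate with NADPH, and elongases and desaturases finish the chain. Insulin and glucose drive the pathway through the transcription factors SREBP-1c (Srebf1) and ChREBP (Mlxipl), and fasting shuts it down.

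Values are the deposited counts-per-million (CPM), the reads of a gene scaled to all reads of its library, with every value under 1 CPM set to 1, so a gene listed at 1 had at most 13 to 20 reads. The libraries held 13.7 to 17.9 M reads with PBS and 13.3 to 20.5 M reads with clodronate, of which 60.5 to 64.6% and 58.8 to 63.2% were assigned to genes. The median of log2(CPM + 1) over the genes tested was 3.73 ± 0.065 (SD, n = 6) with PBS and 3.61 ± 0.096 (SD, n = 5) with clodronate, a difference of -0.11 (exact two-sided permutation p = 0.0238, or 0.119 adjusted over 5 technical measures). The other 4 measures, namely depth, share assigned, genes above the floor and share in the 10 most abundant genes, had exact permutation p-values from 0.0801 to 0.907. The glands differed in what they held besides fat. The 14 skeletal muscle genes summed to 39.7 to 4295 CPM with PBS and 46.6 to 33305 CPM with clodronate, highest in clodronate mouse 2, and PBS mouse 2 alone had T cell genes at a sum of 108 CPM (the other PBS mice 5.28 to 9.89 CPM, the clodronate mice 4.48 to 16.6 CPM).

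Across 13644 genes above 1 CPM in at least 5 of the 11 mice, limma found 0 genes past an adjusted p of 0.05 (0% of those tested), the smallest adjusted p being 0.12, for Dhrs7. At an unadjusted p under 0.05 there were 1028 genes, of which 910 were lower with clodronate (6.67% of genes tested) and 118 higher (0.865%). Of those 1028, 88.5% were on the lower side. At any p, 66.3% of genes were lower, with a median difference of -0.12 on the log2(CPM + 1) scale. After scaling to a common upper quartile the median difference was -0.02, and the split became 401 lower and 250 higher. In 87 genes every clodronate mouse was below every PBS mouse (0.638% of genes), and in 9 every clodronate mouse was above (0.066%).

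Within that lean towards lower values, one pathway stood apart in size. All 13 of the 13 fatty acid synthesis genes had lower mean values with clodronate, all 13 at an unadjusted p under 0.05 where 6.67% of all genes were, with a median log2 difference of -1.44 against -0.12 over all genes. None of the 13 passed the adjusted threshold (adjusted p from 0.259 to 0.633, limma with Benjamini-Hochberg adjustment). In a fit of the 11 sedentary mice alone, 11 of the 13 were lower at an unadjusted p under 0.05, and after scaling to a common upper quartile 11. The counts below are descriptions of the list and its members, and the differences are on the log2(CPM + 1) scale.

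The 4 genes shown first carry acetyl groups into the pathway or build the chain. Their promoters are printed as examples from the list, and cover 250 bases before to 50 after the start site (RefSeq, GRCm38.p6, 5′ to 3′ on the gene's strand). Shared control of these genes was not tested. Acly lies at chr11:100527951-100528250 on the minus strand, Acss2 at chr2:155517793-155518092 on the plus strand, Fasn at chr11:120824498-120824797 on the minus strand and Slc25a1 at chr16:17928170-17928469 on the minus strand. Capitals mark matches on either strand to CACGTG (the E-box that USF and ChREBP proteins read), CCAAT (read by NF-Y) and GGGCGG (read by Sp1), and the other motif searched, TCACNCCAC, of the sterol response kind, had no match in these 4 windows.
Acly: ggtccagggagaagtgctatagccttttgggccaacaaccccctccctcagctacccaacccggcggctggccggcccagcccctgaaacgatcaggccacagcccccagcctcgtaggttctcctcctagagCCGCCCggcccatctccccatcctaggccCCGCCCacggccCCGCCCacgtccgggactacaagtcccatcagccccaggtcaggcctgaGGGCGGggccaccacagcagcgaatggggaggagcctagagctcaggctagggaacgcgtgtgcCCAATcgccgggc
Acss2: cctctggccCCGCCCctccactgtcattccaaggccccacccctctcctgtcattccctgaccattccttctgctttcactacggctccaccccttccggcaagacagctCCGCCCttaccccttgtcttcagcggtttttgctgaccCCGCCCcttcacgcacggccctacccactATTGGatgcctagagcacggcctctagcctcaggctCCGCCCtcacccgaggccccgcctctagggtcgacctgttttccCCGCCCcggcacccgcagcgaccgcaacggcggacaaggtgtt
Fasn: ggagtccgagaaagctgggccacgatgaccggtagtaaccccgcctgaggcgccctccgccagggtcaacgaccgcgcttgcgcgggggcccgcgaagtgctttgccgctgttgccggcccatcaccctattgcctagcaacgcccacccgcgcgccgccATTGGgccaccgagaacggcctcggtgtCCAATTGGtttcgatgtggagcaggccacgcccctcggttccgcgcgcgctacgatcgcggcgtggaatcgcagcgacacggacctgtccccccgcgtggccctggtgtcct
Slc25a1: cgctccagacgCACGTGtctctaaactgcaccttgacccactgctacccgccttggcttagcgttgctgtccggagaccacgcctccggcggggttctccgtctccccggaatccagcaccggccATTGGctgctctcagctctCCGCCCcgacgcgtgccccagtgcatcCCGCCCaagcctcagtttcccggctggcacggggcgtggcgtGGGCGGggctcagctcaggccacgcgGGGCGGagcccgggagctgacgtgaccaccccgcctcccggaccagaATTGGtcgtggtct
Of the 13 genes, 11 had a promoter in the RefSeq table. CCAAT was found in 9 of those 11, against 37.4% of 32851 promoters, GGGCGG in 7 against 35.7%, CACGTG in 2 (Slc25a1 and Mlxipl) against 7.15%, and TCACNCCAC in 1 (Mlxipl) against 1.24%. In Fasn, 2 of the CCAAT matches lie on opposite strands and overlap. The 4 windows are rich in G and C (65 to 69.3%, median of all promoters 52.7%), a property that raises the chance of GGGCGG, and some genes have several windows, so these shares are descriptions.

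Acly (chr11:100476353-100528000, minus strand, GENCODE M21), which supplies cytosolic acetyl-CoA, had 1783, 1161, 618, 612, 479.5 and 353 CPM in PBS mice 1 to 6. In clodronate mice 1 to 5 it had 687, 88.3, 104, 56.2 and 95.0 CPM. Clodronate mice 2 to 5 were all below the lowest PBS mouse and clodronate mouse 1 was inside the PBS range. The log2 difference was -2.47 ± 0.57 (SE), unadjusted p = 0.000224 and adjusted p = 0.259 by limma.

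Acaca (chr11:84129672-84401651, plus strand), the enzyme of the committed step, had 587, 441, 326, 302, 233 and 254 CPM with PBS. With clodronate it had 514, 77.2, 82.4, 77.9 and 93.8 CPM. The same 4 mice were low, within a narrow range, and mouse 1 lay near the top of the PBS range. Its log2 difference was -1.50 ± 0.43 (SE, unadjusted p = 0.00182).

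Fasn (chr11:120805846-120824547, minus strand), the enzyme that builds palmitate, had 4980, 3956, 2588, 3068, 2450 and 2368 CPM with PBS and 5571, 579, 666, 517 and 947 CPM with clodronate. Clodronate mouse 1 had the highest value of the 11 mice and the other 4 the lowest. The log2 difference was -1.62 ± 0.47 (SE, unadjusted p = 0.00228).

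Acss2, which makes acetyl-CoA from acetate, had 355, 263, 127, 104, 73.9 and 89.4 CPM with PBS, and 127, 23.7, 19.8, 26.7 and 25.3 CPM with clodronate (log2 difference -2.06 ± 0.50 SE, unadjusted p = 0.000432). Slc25a1, the mitochondrial citrate carrier, ranged from 278 to 687 CPM with PBS, and had 617, 97.2, 109, 133 and 146 CPM with clodronate (-1.32 ± 0.41). Malic enzyme (Me1), a source of NADPH, ranged from 267 to 1506 CPM with PBS and had 574, 114, 104, 93.9 and 145 CPM with clodronate (-1.84 ± 0.52). In all 3 genes clodronate mouse 1 sat inside the PBS range and the other 4 below it.

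**Figure D1:**
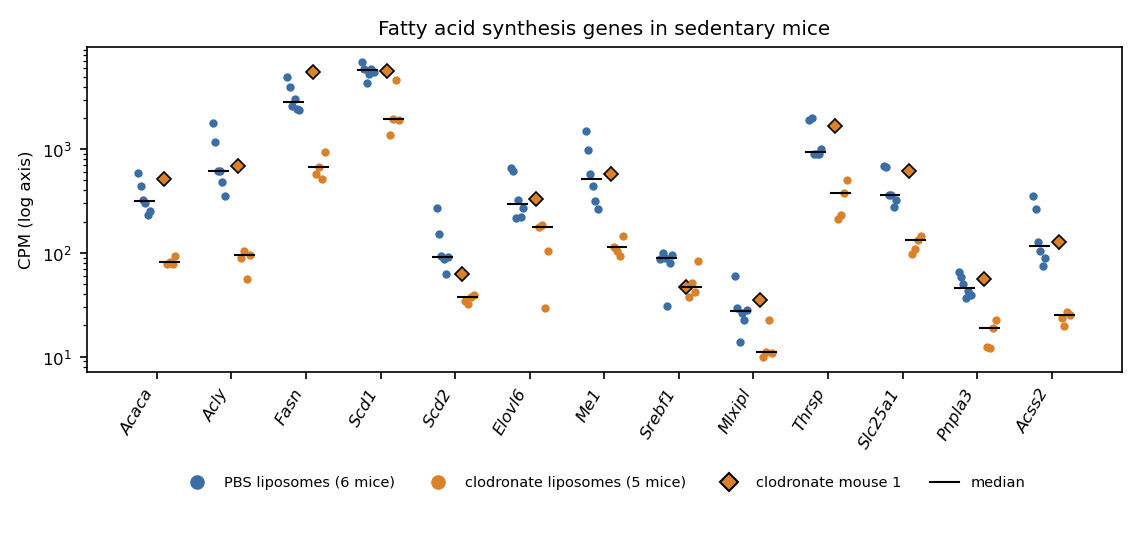
CPM on a log axis for the 13 fatty acid synthesis genes in sedentary mice, with PBS liposomes in blue (6 mice) and clodronate liposomes in orange (5 mice), a bar at each median, and a diamond for clodronate mouse 1. For Acly, Acaca, Fasn, Acss2, Slc25a1 and Me1 the 4 round orange points lie below all blue points and the diamond lies among or above them.

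The enzymes that finish the chain showed the same side with more variation. Scd2, a stearoyl-CoA desaturase, had 62.1 to 272 CPM with PBS and 62.1, 34.1, 31.9, 37.4 and 39.4 CPM with clodronate, so that here clodronate mouse 1 was at the lower edge of the PBS range (-1.46 ± 0.36, unadjusted p = 0.000461). Scd1, the main desaturase of fat, had 4382 to 6944 CPM with PBS, and 5599, 1376, 1937, 4631 and 1904 CPM with clodronate (-1.09 ± 0.36). Clodronate mouse 4, low in the other enzymes, was within the PBS range for Scd1 and had the lowest Elovl6 (29.7 CPM), the elongase that makes stearate from palmitate. Elovl6 as a whole differed by -1.42 ± 0.49.

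Among the regulators, Srebf1 (-0.58 ± 0.26) and Mlxipl (-0.75 ± 0.33) had the smallest differences of the 13. Srebf1 had 30.8 CPM in PBS mouse 4 and 79.2 to 99.4 CPM in the other 5 PBS mice, against 37.7 to 83.4 CPM with clodronate, so the groups overlapped. Thrsp, a nuclear protein that goes with lipogenesis (-1.44 ± 0.42), had 892 to 1995 CPM with PBS and 1672, 210, 233, 378 and 504 CPM with clodronate. Pnpla3, a lipid droplet protein under the same regulators (-1.17 ± 0.39), had 37 to 65.4 CPM with PBS and 12.1 to 56.1 CPM with clodronate, highest in mouse 1.

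The spread within the clodronate group lay largely between 1 mouse and the other 4. The list's mean of log2(CPM + 1) was 9.25, 8.90, 8.15, 8.09, 7.93 and 8.03 in PBS mice 1 to 6, and 8.49, 6.41, 6.52, 6.52 and 6.82 in clodronate mice 1 to 5. PBS mice 1 and 2 were highest and clodronate mouse 1 came next. The library of clodronate mouse 1 was the deepest of the 11, at 20.5 M reads, and its median log2(CPM + 1) over the genes tested, 3.45, was the lowest (the other 4 clodronate mice 3.62 to 3.67). The part of either in its values was not tested.

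Leaving out each of the 11 mice in turn gave 0 to 38 genes past an adjusted p of 0.05. The 38 came without clodronate mouse 1, and all 38 were lower with clodronate (0.279% of genes). Without PBS mouse 5 or without PBS mouse 6 there was 1 gene, also lower, and without each of the other 8 mice 0. Since clodronate mouse 1 stood apart in these same genes, the 38 describe the other 10 mice and add no independent test. They include 7 of the 13 fatty acid synthesis genes: Fasn (-2.24 ± 0.35, adjusted p = 0.00732 by limma), Acly (-3.08 ± 0.50), Acaca (-2.02 ± 0.34), Thrsp, Acss2, Slc25a1 and Me1. In that fit 12 of 13 list genes were lower at an unadjusted p under 0.05 (7.24% of all genes), and for 10 of 13 the groups did not overlap (1.8% of all genes). Upper-quartile scaling in the same 10 mice left 15 genes, all lower. Without that scaling, leaving out PBS mouse 2 as well left 18, also all lower.

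The 38 also held genes that feed or use the pathway. Pgd and Tkt belong to the pentose phosphate pathway that makes NADPH, Pdhb and Pdhx to the pyruvate dehydrogenase complex, Mpc2 to the mitochondrial pyruvate carrier, Pcx is pyruvate carboxylase, Gpd1 and Gpd2 the glycerol phosphate dehydrogenases, and Agpat2, Dgat2 and Bscl2 act in making triglyceride and its droplets. In these 10 mice Pcx differed by -1.60 ± 0.27 and Gpd2 by -1.18 ± 0.20 on the log2 scale, against -1.11 ± 0.37 and -0.90 ± 0.24 in all 11. These names were read off the 10-mouse fit after the values were seen.

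**Figure D2:**
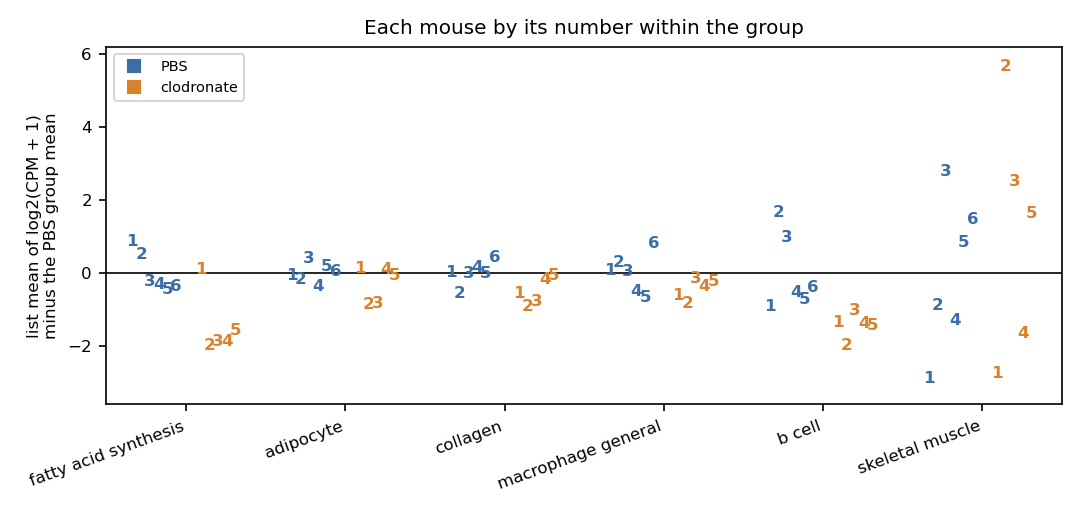
Each number is a mouse of that number within its group, PBS in blue and clodronate in orange, plotted as its mean log2(CPM + 1) over a gene list minus the mean of the PBS group. For fatty acid synthesis, clodronate mice 2 to 5 lie apart from all others, while for adipocyte genes clodronate mice 1, 4 and 5 lie among the PBS mice.

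Adipocyte RNA in the sample was read from 18 adipocyte genes. Of these, 15 were lower (66.3% of all genes were) and 3 higher with clodronate, with a median log2 difference of -0.33. At an unadjusted p under 0.05, 3 of the 18 were lower (6.67% of all genes on that side). The list's mean log2(CPM + 1) was 9.12 to 9.87 with PBS, and 9.60, 8.63, 8.65, 9.58 and 9.41 with clodronate, so mice 2 and 3 were below the PBS range and mice 1, 4 and 5 inside it. Clodronate mice 4 and 5 had fatty acid synthesis means of 6.52 and 6.82, under the lowest PBS mouse at 7.93. Skeletal muscle genes summed to 46.6, 3561, 139 and 2241 CPM in clodronate mice 1, 3, 4 and 5, within the PBS range, and to 33305 CPM in mouse 2. The part of fat or muscle content in the fatty acid synthesis values was not tested. The 3 adipocyte genes past the unadjusted threshold were Dgat2, the last enzyme of triglyceride synthesis (-1.06 ± 0.26, unadjusted p = 0.00053), Gpd1 (-0.88 ± 0.32, unadjusted p = 0.0102) and Retn, the adipokine resistin. Dgat2 had 723 to 1242 CPM with PBS and 884, 311, 306, 499 and 373 CPM with clodronate. Except in mouse 1 its clodronate values lay below all PBS values.

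Of related metabolism, cholesterol synthesis genes were little separated: 8 of 14 were lower (66.3% of all genes were) and 6 higher, with a median of -0.19. At an unadjusted p under 0.05, 1 was lower (6.67% of all genes on that side). That 1 was Insig1, the sterol sensor that also holds SREBP proteins in the endoplasmic reticulum (-1.09 ± 0.36, unadjusted p = 0.00599), and Fdft1, squalene synthase, differed by -0.58 ± 0.31. Of 13 glycolytic genes, 2 were lower at an unadjusted p under 0.05 (6.67% of all genes were), Eno1 (-1.01 ± 0.29) and Hk2 (-0.51 ± 0.20). Eno1 has many processed pseudogenes that can take its reads, so its value is uncertain. None of 8 thermogenic genes passed (Fabp3 1.16 ± 0.64, Prdm16 -0.32 ± 0.25), nor any of 12 hypoxia targets (Adm -0.85 ± 0.43, Ddit4 0.55 ± 0.30) or of 8 mitochondrially encoded genes (mt-Nd4 -0.50 ± 0.31, mt-Cytb -0.36 ± 0.25).

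The wheel-running mice gave the same contrast in other animals. Wheel clodronate mice 3 to 5 stood apart from mice 1 and 2 in lymphoid RNA: their T cell genes summed to 225, 250 and 124 CPM (5.89 and 13 CPM in mice 1 and 2, 4 to 101 CPM in the wheel PBS mice), and their MHC class II genes to 3122, 3001 and 2110 CPM (480 and 427 CPM in mice 1 and 2). The part of these 3 libraries in the wheel and interaction values was not tested. In these wheel mice, 13 of 13 fatty acid synthesis genes were lower with clodronate, 11 of them at an unadjusted p under 0.05 (6.03% of all genes on that side, 5.1% on the higher side), with a median log2 difference of -1.02 against -0.01 over all genes. Acly differed by -1.24 (wheel PBS mice 374 to 1098 CPM, wheel clodronate mice 262, 132, 100, 786 and 595 CPM), Fasn by -1.10 (2500 to 4377 CPM against 1909, 1601, 582, 3177 and 3067 CPM) and Scd2 by -1.39 (37.2 to 138 CPM against 33.9, 16.1, 30.6, 54.1 and 61.9 CPM). The wheel groups overlapped in Acly, Fasn and Scd2. Adipocyte genes were lower in the wheel mice too, 18 of 18, with a median log2 difference of -0.57. Of these, 11 were at an unadjusted p under 0.05 (6.03% of all genes on that side). The part of fat content in the wheel values was not tested. No gene passed an adjusted p of 0.05 in the wheel mice either (smallest 0.0690), while 1519 genes had an unadjusted p under 0.05. When limma weighted each mouse by its agreement with its group, 1348 genes passed the adjusted threshold. Those weights were 1.59, 1.51 and 2.29 in wheel clodronate mice 3 to 5, against 0.484 and 0.438 in mice 1 and 2. The part of this weighting in the 1348 was not tested.

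The difference between the sedentary and the wheel contrast was tested as an interaction. It gave 0 genes past an adjusted p of 0.05 (smallest 0.541), or 380 with the same weights, and 986 at an unadjusted p under 0.05 (7.23%), of which 0 were fatty acid synthesis genes. For Acly the interaction, wheel minus sedentary, was 1.23 ± 0.80, for Fasn 0.52 ± 0.67 and for Scd2 0.07 ± 0.51 on the log2 scale. The SE of each of these 3 interactions was over 0.50, so the test could show only large differences between the 2 contrasts.

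**Figure D3:**
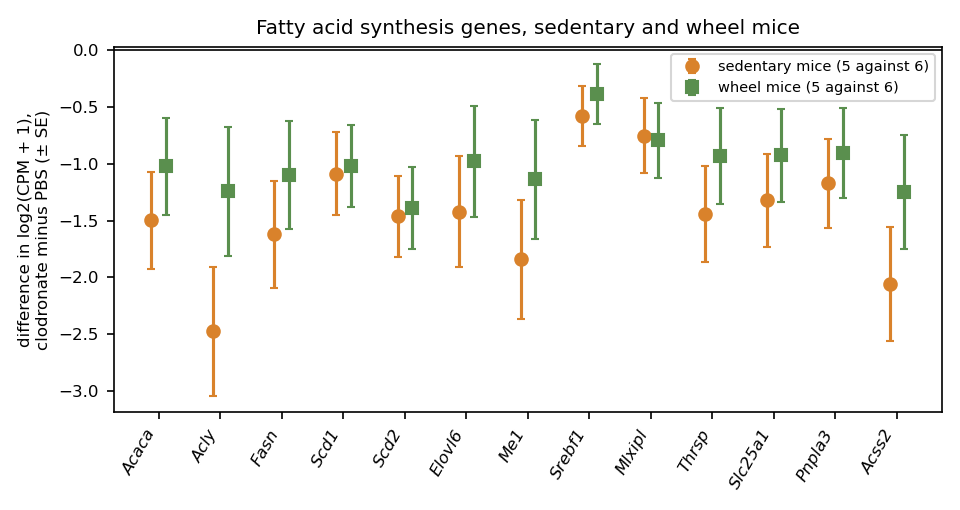
Difference in log2(CPM + 1), clodronate minus PBS, with its SE, for the 13 fatty acid synthesis genes in sedentary mice (orange circles) and wheel mice (green squares), each 5 against 6 mice. All points lie below 0, from -2.47 (Acly, sedentary) to -0.38 (Srebf1, wheel).

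The target of clodronate, the macrophage, was read from 20 general markers, all 20 of which were tested. Of these, 18 were lower (66.3% of all genes were) and 2 higher with clodronate, with a median log2 difference of -0.55 against -0.12 over all genes. At an unadjusted p under 0.05, 1 was lower (6.67% of all genes on that side). That gene was C1qa, a chain of complement C1q made largely by macrophages (chr4:136895917-136898803, minus strand). It had 65.8, 73.4, 99.2, 73.8, 51.8 and 87.4 CPM with PBS and 50.6, 39.1, 69.3, 48.8 and 64.9 CPM with clodronate, overlapping groups (-0.46 ± 0.20, unadjusted p = 0.0329). The list's summed level was 395 to 1068 CPM with PBS and 379 to 572 CPM with clodronate. Its mean log2(CPM + 1) was 4.50 ± 0.53 (SD, n = 6) and 4.05 ± 0.29 (SD, n = 5). In the wheel mice 10 of the 20 markers were lower, with a median of -0.03. At an unadjusted p under 0.05, 0 were lower and 1 higher there. The list summed to 377, 343, 1332, 1249 and 1159 CPM in wheel clodronate mice 1 to 5. The part of the 3 libraries with lymphoid RNA (mice 3 to 5) in this was not tested.

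The 20 markers ranged from -1.05 (Cd53) to 0.40 (Cd14), and those nearest 0 are given first. Adgre1, which encodes F4/80, had 8.61, 5.06, 8.45, 6.2, 7.55 and 14.9 CPM with PBS and 5.81, 3.6, 11.4, 6.61 and 16.7 CPM with clodronate (-0.04 ± 0.40). Csf1r, the receptor for the macrophage growth factor, had 26.0 to 66.0 CPM with PBS and 28.7 to 52.1 CPM with clodronate (-0.13 ± 0.29). Cx3cr1 (0.02 ± 0.43), C1qc (-0.10 ± 0.32), C1qb (-0.22 ± 0.27) and Mertk, a receptor for dying cells (-0.26 ± 0.29), came next, and Cd14 (0.40 ± 0.32) was on the higher side. No marker was at the floor in all mice, though Fcgr1 was listed at 1 in clodronate mice 2 and 4 (1.21 to 17.5 CPM with PBS, 1 to 4.45 CPM with clodronate, -0.85 ± 0.54). Adgre1, Csf1r, C1qc and Cx3cr1 had the other sign when single mice were left out.

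The other markers besides C1qa had differences from -0.41 to -1.05, and none passed the unadjusted threshold. Fcgr3, an Fc receptor, had 20.9, 15.8, 17.4, 13.6, 4.72 and 21.4 CPM with PBS and 9.42, 3.6, 10.1, 7.29 and 6.86 CPM with clodronate (-0.91 ± 0.46, unadjusted p = 0.0609), where only PBS mouse 5 was as low as the clodronate mice. Cd53 (-1.05 ± 0.72), Cd68 (-0.65 ± 0.54), Laptm5 (-0.63 ± 0.57), Ctss (-0.63 ± 0.55), Tyrobp (-0.63 ± 0.47), Aif1 (-0.60 ± 0.55), Fcer1g (-0.59 ± 0.40), Lyz2 (-0.57 ± 0.43), Mpeg1 (-0.53 ± 0.54) and Itgam (-0.41 ± 0.35) were all within 2 SE of 0. Cd53 and Laptm5 are also made by lymphocytes, and PBS mouse 2, with its T cell genes, had the highest values of both, at 34.9 and 108 CPM. The part of lymphocytes in these differences was not tested. Without clodronate mouse 1 no general marker was at an unadjusted p under 0.05 and the median was -0.46, and over all 11 fits without 1 mouse the median ranged from -0.73 to -0.35.

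**Figure D4:**
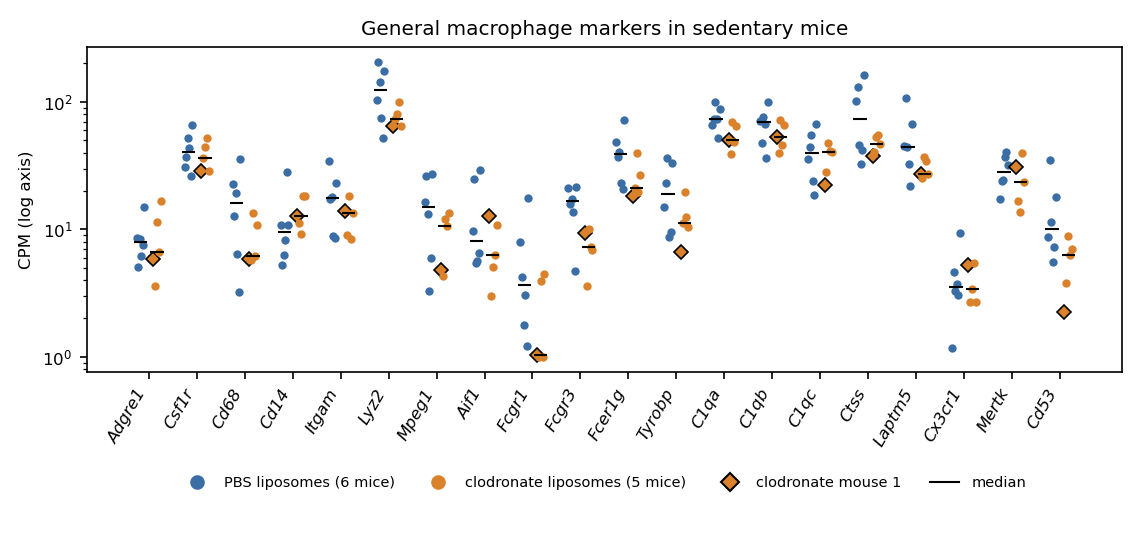
CPM on a log axis for the 20 general macrophage markers in the 6 PBS mice (blue) and 5 clodronate mice (orange), with medians as bars and clodronate mouse 1 as a diamond. The groups overlap in all 20 markers.

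Of 18 markers of resident and perivascular macrophages 16 were tested, 13 of them lower (66.3% of all genes were) and 2 at an unadjusted p under 0.05 (6.67% of all genes on that side), with a median of -0.35. Mrc1, the mannose receptor CD206, had 61.5, 31.7, 76.4, 42.7, 18.9 and 54.7 CPM with PBS and 21.4, 19.4, 35.7, 33.9 and 33.3 CPM with clodronate (-0.62 ± 0.27, unadjusted p = 0.032). Wfdc17 had 1.79 to 17.4 CPM and 1.13 to 12.0 CPM (-1.02 ± 0.48, unadjusted p = 0.0427). Lyve1, shared with lymphatic endothelium, had 32.5 CPM as its PBS median and 12.0 CPM as its clodronate median (-0.61 ± 0.51). The 2 not tested, Vsig4 and Marco, were above the floor in fewer than 5 mice. In the wheel mice 13 of the 16 were lower, 2 at an unadjusted p under 0.05, with a median of -0.36.

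Monocyte genes were lower in 7 of 7 tested (66.3% of all genes were), with a median of -0.55. None was at an unadjusted p under 0.05 (6.67% of all genes on that side). Ccr2, the receptor that brings monocytes into tissue, had 9.10 to 54.9 CPM with PBS and 10.5 to 22.2 CPM with clodronate (-0.60 ± 0.39), and Spn differed by -1.05 ± 0.63. In the wheel mice 3 of the 7 monocyte genes were lower, 1 at an unadjusted p under 0.05, with a median of 0.95. The part of the wheel libraries with lymphoid RNA in that median was not tested. Of 7 macrophage growth factor and receptor genes tested 4 were lower and 3 higher, with a median of -0.13 against -0.12 over all genes. At an unadjusted p under 0.05, 1 was lower, namely Csf2ra (-0.75 ± 0.33, unadjusted p = 0.0316), and Csf2rb had the next smallest p (-0.64 ± 0.31). Of 8 genes of alternative activation 4 were lower and 4 higher. Of these Spp1, osteopontin, was lower at an unadjusted p under 0.05 (-1.11 ± 0.53), with all clodronate mice at or under 2.02 CPM, and Gpnmb differed by -0.61 ± 0.35.

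The lists of macrophage functions are to be read against the 66.3% of all genes that were lower and the 6.67% that were lower at an unadjusted p under 0.05. Of 18 lysosomal genes 17 were lower, with a median of -0.28, and 1 was at an unadjusted p under 0.05. That was Ctsb, cathepsin B, with 672, 565, 590, 411, 493 and 635 CPM with PBS and 439, 304, 353, 450 and 485 CPM with clodronate (-0.47 ± 0.15, unadjusted p = 0.00448), and the groups overlapped. Ctsb differed by -0.45 in the wheel mice. Cathepsin D (Ctsd) differed by -0.31 ± 0.15. Of 11 genes of iron and heme handling 10 were lower, Ftl1, ferritin light chain, at an unadjusted p under 0.05 (-0.92 ± 0.32) and Blvra, biliverdin reductase, by -0.47 ± 0.24, though Ftl1 too has processed copies that can share its reads. Genes for the uptake of dying cells and cholesterol efflux were lower in 8 of 13, none at an unadjusted p under 0.05 (Tyro3 0.71 ± 0.46, Axl 0.22 ± 0.18). Of 14 complement genes 9 were lower, and 2 were lower and 1 higher at an unadjusted p under 0.05: C1qa (above), C1s1 (-0.48 ± 0.20, unadjusted p = 0.0284) and C4b (0.48 ± 0.18, unadjusted p = 0.0126).

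The cytokine and interferon lists held no gene at an unadjusted p under 0.05. The counts of lower genes here are to be read against the 66.3% of all genes that were lower. Of 13 inflammatory cytokine genes 5 were tested (Il33 -0.51 ± 0.56, Il1rn -0.65 ± 0.85), and Il6, Nos2 and Ptgs2 were among the 8 that were not. Of 15 chemokines tested 12 were lower, the smallest p being those of Ccl7, a monocyte attractant (-1.28 ± 0.70), and Cxcl10, an interferon target (-1.05 ± 0.59). Of 20 interferon-stimulated genes 17 were lower, with a median of -0.16 (Mx1 -1.06 ± 0.54, Ifit2 -0.79 ± 0.55). Of 13 acute phase and wound genes 10 were lower (Tnc -0.84 ± 0.48, Lbp -0.72 ± 0.43).

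Other leukocytes were represented thinly. Of 12 B cell genes only Ighm was tested, and every clodronate mouse (12.8 to 25.8 CPM) was below every PBS mouse (28.1, 172, 107, 36.8, 32.2 and 40.5 CPM), at -1.45 ± 0.78 with an unadjusted p of 0.0759. PBS mice 2 and 3 were the highest of the 6. Among wheel clodronate mice Ighm was 12.9 and 22.7 CPM in mice 1 and 2, and 456, 454 and 299 CPM in mice 3 to 5, which carried the lymphoid RNA (wheel PBS mice 16.3 to 203 CPM), so no wheel difference is given. T cell genes were lower in 4 of 4 tested (Il7r -0.90 ± 0.88, Tcf7 -0.55 ± 0.81), where 66.3% of all genes were. PBS mouse 2 had 47.5 CPM of Il7r and no other sedentary mouse was over 5.24 CPM. Dendritic cell (Zbtb46 -0.48 ± 0.35, Clec9a -0.23 ± 0.19), MHC class II (H2-DMa -0.33 ± 0.52, H2-Aa -0.29 ± 0.48), NK and cytotoxic (Prf1 -0.53 ± 0.29, Klrb1c 0.26 ± 0.23), neutrophil (Ltf 0.50 ± 0.47, S100a9 0.29 ± 0.31) and eosinophil and mast cell lists (Tpsb2 0.29 ± 0.26, Mcpt4 -0.06 ± 0.38) had 0 genes at an unadjusted p under 0.05. Of 10 neutrophil genes not tested, 5 were at the floor in all 11 mice.

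Collagens, which form most of the matrix around fat cells and ducts, lay on the lower side in both housing groups. All 12 of 12 collagen genes were lower with clodronate (66.3% of all genes were), 3 at an unadjusted p under 0.05 (6.67% of all genes), with a median of -0.49. In the wheel mice 12 of 12 were lower, 9 at an unadjusted p under 0.05 (6.03% of all genes), with a median of -0.69. Col3a1, a fibrillar collagen, had 486 to 1360 CPM with PBS and 300.2 to 644 CPM with clodronate (-0.67 ± 0.28, unadjusted p = 0.0254). Col6a3, a chain of the collagen VI that surrounds adipocytes, had 122, 76.6, 115, 129, 100 and 126 CPM with PBS and 46.8, 57.8, 54, 102 and 115 CPM with clodronate (-0.63 ± 0.23, unadjusted p = 0.0113). Clodronate mice 1 to 3 were below the PBS range and mice 4 and 5 inside it. Serpinh1, the collagen chaperone HSP47, had 195, 122, 188, 82.3, 84.2 and 124 CPM with PBS and 41.6, 42.8, 38.9, 55.1 and 88.9 CPM with clodronate (-1.28 ± 0.27, unadjusted p = 8.15e-05). Here clodronate mouse 1 was among the low mice, unlike in fatty acid synthesis, and mouse 5 was the one inside the PBS range.

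Of 10 fibroblast and progenitor genes 6 were lower (66.3% of all genes were). Lum, the proteoglycan lumican, was lower at an unadjusted p under 0.05 (-0.59 ± 0.21, 6.67% of all genes on that side), with Fbn1 at -0.44 ± 0.24. Of 12 matrix metalloproteinases and their inhibitors 7 were lower and 5 higher, with a median of -0.04. At an unadjusted p under 0.05, 1 was lower, namely Mmp19 (-0.86 ± 0.34, unadjusted p = 0.0199), while Mmp14 did not pass (-0.19 ± 0.18). Mmp19 was 2.93 CPM in clodronate mouse 3 and 14.6 to 21.4 CPM in the other 4. Endothelium (Kdr -0.35 ± 0.22, Tie1 -0.43 ± 0.31), pericytes and smooth muscle (Rgs5 -0.37 ± 0.27, Pdgfrb -0.36 ± 0.29) and lymphatic genes (Lyve1, Flt4 -0.26 ± 0.40) had 0 genes at an unadjusted p under 0.05.

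The genes with the smallest unadjusted p on the lower side, none past the adjusted threshold, were led by Dhrs7, a short-chain dehydrogenase of the endoplasmic reticulum (chr12:72650353-72664909, minus strand). It had 147, 121, 122, 95.2, 86.2 and 67.8 CPM with PBS and 73, 41.7, 49.6, 46 and 41 CPM with clodronate, so only clodronate mouse 1 reached the PBS range (-1.06 ± 0.19, unadjusted p = 8.8e-06, adjusted p = 0.12 by limma). In the wheel mice it differed by -0.75 (unadjusted p = 0.000536). Olfm1, a secreted glycoprotein, had 33.6 to 66 CPM with PBS and 14.9 to 25.1 CPM with clodronate and did not overlap (-1.12 ± 0.22).

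Eif2s1, the alpha subunit of initiation factor eIF2 (-0.81 ± 0.18), the histone gene Hist1h2bc (-0.74 ± 0.16) and Smc6, of the SMC5/6 complex (-0.60 ± 0.14), also did not overlap. Smc6 had 89 to 127 CPM with PBS and 55.7 to 88 CPM with clodronate. Its values in wheel clodronate mice 1 to 5 were 90.6, 88.1, 133, 117 and 113 CPM, highest in the 3 mice with lymphoid RNA, against 69.3 to 90.4 CPM in the wheel PBS mice. Smc6 had the smallest interaction p of all genes (adjusted p = 0.541 by limma), and the part of those 3 libraries in it was not tested.

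Other genes of this kind overlapped between the groups. Tuba1b, an alpha-tubulin (-0.90 ± 0.19), Cyb5b, a cytochrome b5 of the outer mitochondrial membrane (-0.87 ± 0.19), Pgd, which makes NADPH in the pentose phosphate pathway (-1.36 ± 0.30), and a row named 1-Mar (-1.96 ± 0.42) stood beside Serpinh1 and Acly. The name 1-Mar is a gene symbol turned into a date, and could have stood for either of 2 mouse genes. Pgd had 336, 208, 212, 159, 129 and 126 CPM with PBS and 171, 47.6, 41.2, 67.5 and 79.7 CPM with clodronate, with mouse 1 again inside the PBS range.

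The largest differences among genes whose groups did not overlap were, on the lower side, in Lctl (-1.51 ± 0.42, PBS 2.99 to 11.5 CPM, clodronate 1 to 2.79 CPM), Ighm (above), Sbk1 (-1.37 ± 0.40), Ms4a6b, a myeloid and lymphoid membrane protein (-1.33 ± 0.73), and H2-DMb2, of MHC class II loading (-1.31 ± 0.88). Ms4a6b and H2-DMb2 had their highest PBS values, 59.5 and 23.9 CPM, in PBS mouse 2.

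Few genes were higher with clodronate, and those with the smallest p were a mixed set. Inpp5k, an inositol phosphatase that dampens insulin signaling (chr11:75630988-75648871, plus strand), had 10.8, 17.3, 13.7, 13.4, 21.3 and 19.1 CPM with PBS and 24.3, 26, 26.2, 30.7 and 30.5 CPM with clodronate, with no overlap and clodronate mouse 1 the lowest of its group (0.78 ± 0.19, unadjusted p = 0.000365). Its wheel difference was 0.20. Sgk1, a kinase induced by glucocorticoids, had 20.1, 15.2, 19.6, 33.7, 20.5 and 18.1 CPM with PBS and 22.7, 51.9, 50.3, 42.3 and 38.3 CPM with clodronate (0.91 ± 0.27, unadjusted p = 0.00252). Clodronate mouse 1 was again on the PBS side, and PBS mouse 4 the only PBS mouse above it. Akt1s1, the mTORC1 inhibitor PRAS40, had 2.5 to 3.8 CPM with PBS and 3.81, 8.84, 8.30, 5.75 and 5.88 CPM with clodronate (0.84 ± 0.30).

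Fcgbp, a mucus protein, had 21.6 to 39.1 CPM with PBS and 57.9, 72.1, 69.8, 105 and 47.4 CPM with clodronate without overlap (1.22 ± 0.31, unadjusted p = 0.00067). Its wheel difference was -0.15, and the limma interaction had an adjusted p of 0.611. Some of the others are epithelial: Ehf (0.70 ± 0.25) and Cited4 (0.94 ± 0.32). The luminal epithelium list had 8 of 14 genes higher and 6 lower (Cldn4 0.81 ± 0.36, Elf5 0.52 ± 0.38), where 66.3% of all genes were lower. The basal list had 5 of 6 higher (Oxtr -0.74 ± 0.47, Lgr6 0.40 ± 0.41). At an unadjusted p under 0.05, 1 luminal gene was higher (0.865% of all genes on that side) and no basal gene passed. The summed basal level was 149 to 1787 CPM with PBS and 159 to 4001 CPM with clodronate, and its part in these values was not tested. Synpo (0.98 ± 0.26), Selp, the P-selectin of activated endothelium (1.21 ± 0.36), Nos1 (1.42 ± 0.40), Arhgef16 (1.02 ± 0.35), Jpx (0.86 ± 0.29) and the predicted gene Gm43343 (0.86 ± 0.30) were on the same side. Jpx was at or near the floor with PBS, at 1.39 CPM in PBS mouse 6 and 1 to 1.11 CPM in the others, so the size of its difference is uncertain. Nos1, found in skeletal muscle, was highest at 20.1 CPM in clodronate mouse 2, the mouse with the most muscle RNA.

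**Figure D5:**
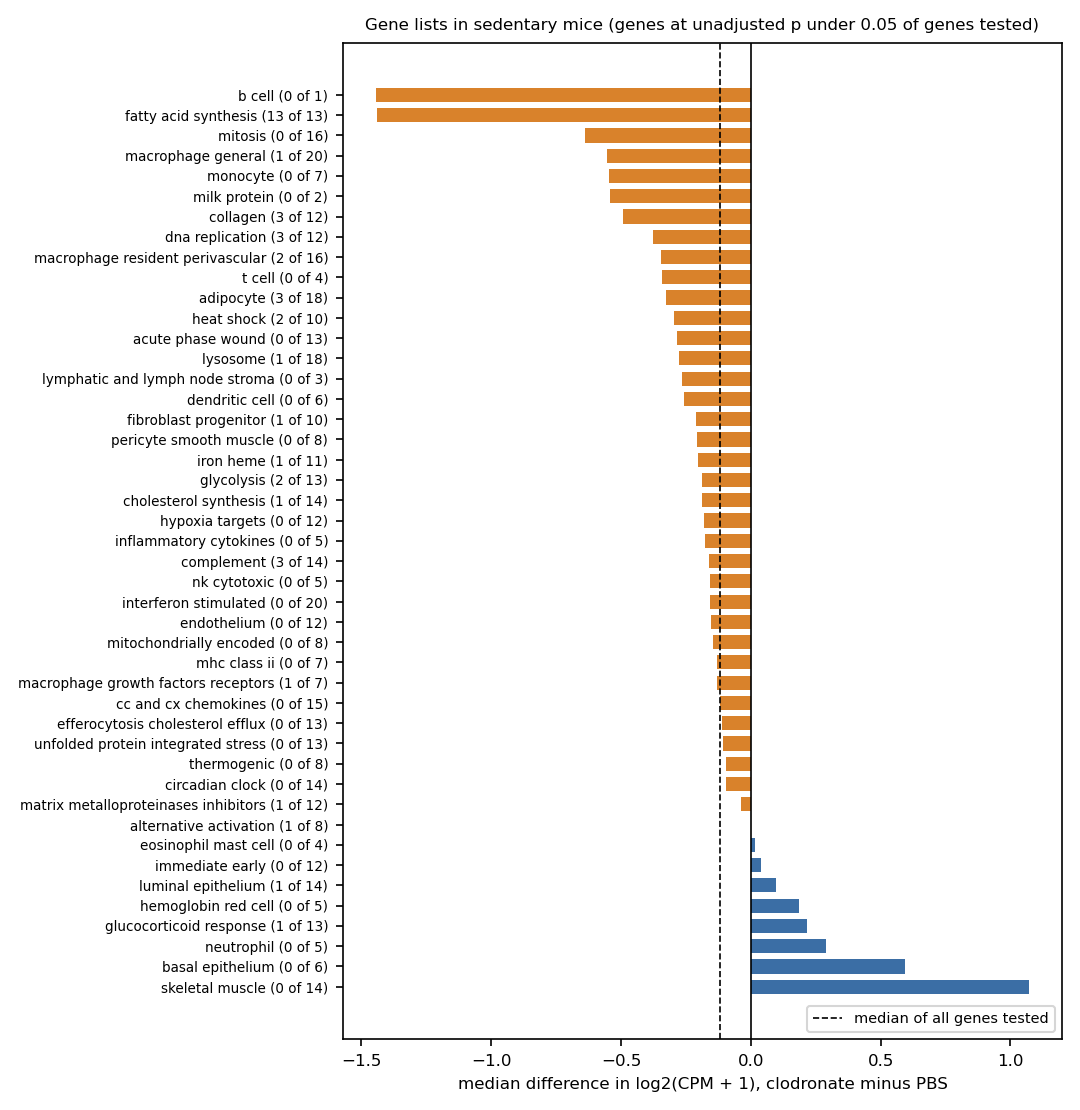
Median difference in log2(CPM + 1), clodronate minus PBS, of each of the 45 gene lists in sedentary mice, with the number of list genes at an unadjusted p under 0.05 of those tested, and the median of all genes as a dashed line. Fatty acid synthesis, at -1.44 with 13 of 13, lies lower than each other list of more than 1 gene (the B cell bar rests on Ighm alone), and skeletal muscle, at 1.07, has 0 of 14.

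In the remaining lists few genes passed even the unadjusted threshold. Their counts are to be read against the 66.3% of all genes that were lower. At an unadjusted p under 0.05, 6.67% of all genes were lower and 0.865% higher. Of 12 DNA replication genes 11 were lower, 3 at an unadjusted p under 0.05, among them Gins2, of the replicative helicase (-1.01 ± 0.29, PBS 4.27 to 8.07 CPM, clodronate 1 to 3.85 CPM, no overlap), and Mcm5 (-1.19 ± 0.48). Of 16 mitosis genes 15 were lower, with a median of -0.64 and 0 at an unadjusted p under 0.05 (Aurka -0.95 ± 0.48, Ccnb1 -1.08 ± 0.58). Of 10 heat shock genes 2 were lower at an unadjusted p under 0.05, Hsp90aa1 (-0.69 ± 0.24) and Hspd1 (-0.56 ± 0.20). Of 13 genes of glucocorticoid response 10 were higher, with Sgk1 (above) at an unadjusted p under 0.05 and Pdk4, which shuts pyruvate dehydrogenase in fasting, at 0.99 ± 0.58.

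The skeletal muscle list had 14 of 14 genes higher with a median of 1.07 and 0 at an unadjusted p under 0.05 (Myh7 0.89 ± 0.76, Mb 1.05 ± 1.08), its spread being that of single mice. Lists of the unfolded protein response (Hspa5 -0.31 ± 0.17, Trib3 0.41 ± 0.38), the circadian clock (Arntl -0.55 ± 0.36, Hlf 0.29 ± 0.21), immediate early genes (Fos 0.40 ± 0.27, Fosb 0.46 ± 0.51), hemoglobin and red cells (Alas2 0.64 ± 0.50, Hbb-bt 0.42 ± 0.40) and milk proteins (Glycam1 -1.38 ± 1.64, Csn3 0.30 ± 0.49) had 0 genes at an unadjusted p under 0.05.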

How the data were processed

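RNA from 22 mammary glands, 11 of them used in the main comparison, was sequenced by the authors with a 3′ tag kit (QuantSeq 3′ FWD). The submitters' processing notes name STAR 2.5.3a and GRCm38, while the annotation and counting settings are not given in the sources used here. The deposited values are a signal per gene, which the authors scaled to CPM with all values under 1 set to 1, so no count model was run.

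Of the symbols, 106 listed more than once kept the row with the highest mean, and 4 rows of unassigned reads stayed out of the tests (58.8 to 64.6% of reads were assigned). Genes above 1 CPM in at least 5 of the 11 mice entered a limma fit (version 3.58.1, under R 4.3.3) of log2(CPM + 1), with a mean per group over all 4 groups, a variance trend and Benjamini-Hochberg adjustment over all 13644 genes. A fold change on this scale understates the change of low genes. Mice of a group were separate animals, and no 2 files agreed within sampling noise.

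Named were the 12 genes with the smallest p each way (predicted genes passed over), all general macrophage markers, the 2 of smallest p in each other list, and the 5 largest differences each way among groups that did not overlap. Fatty acid synthesis genes outside that rule, and single genes that complete a small count, were named after their values were seen. A few genes that the rule names are not reported here. The members and lists were chosen with earlier results of these data known. Alternatives covered pseudocount, filter, scaling, variance model, weights, block and single mice. Gene positions are from GENCODE M21.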

Additional observations from a re-analysis of the deposited data

Results flagged for a closer look

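In 37 of 334 groups of 5 or 6 mice tested, 1 mouse stood apart from the rest of its group by Dixon's criterion, which chance alone meets in about 1 group in 20. Clodronate mouse 1 had 10 of the 37 and was high in 8 single genes, all of fatty acid synthesis or its supply. It had 687 CPM of Acly (the other clodronate mice 56.2 to 104 CPM), 127 of Acss2 (19.8 to 26.7 CPM), 514 of Acaca (77.2 to 93.8 CPM) and 5571 of Fasn (517 to 947 CPM). It had 574 CPM of Me1 (93.9 to 145 CPM), 617 of Slc25a1 (97.2 to 146 CPM), 767 of Tkt (115 to 158 CPM) and 286 of Pdha1 (105 to 135 CPM). Its mean over the fatty acid synthesis list was 8.49 (6.41 to 6.82), and its median log2 value was low at 3.45 (3.62 to 3.67). The genes of one list move together, so these flags are not separate signals.

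PBS mouse 5 had 7 flags. Its 10 most abundant genes took 30.0% of assigned reads (23.1 to 24.7% in the other PBS mice), it was listed at 1 CPM for Il1rn (13.9 to 20.8 CPM) and Ccnb1 (6.94 to 12.1 CPM), low in Fcgr3 at 4.72 CPM (13.6 to 21.4 CPM), Lyve1 at 6.51 CPM (24.3 to 47.0 CPM) and Mcm5 at 3.74 CPM (10.6 to 18.6 CPM), and high in Gins2 at 8.07 CPM (4.27 to 4.85 CPM). PBS mouse 4 had 5: it was high in Sgk1 at 33.7 CPM (15.2 to 20.5 CPM), and low in mt-Cytb at 6245 CPM (8482 to 9568 CPM), Srebf1 at 30.8 CPM (79.2 to 99.4 CPM), Lpin1 at 163 CPM (253 to 298 CPM) and Mogat1 at 3.69 CPM (8.19 to 12.0 CPM). PBS mouse 2 had 4, all high and 3 of them in lymphocyte or leukocyte genes: Spn at 13.6 CPM (2.46 to 4.78 CPM), Il7r at 47.5 CPM (1 to 5.24 CPM), Tcf7 at 21.3 CPM (1 to 2.52 CPM), and Glycam1 at 436 CPM (1.32 to 4.78 CPM), which is made in milk and in lymph node vessels.

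Of the rest, PBS mouse 3 was high in Il33 at 27.2 CPM and Myh7 at 6.48 CPM, PBS mouse 1 in Pdhx at 45.2 CPM and PBS mouse 6 in Jpx at 1.39 CPM. Clodronate mouse 2 was low in Hsp90aa1 at 57.8 CPM and high in Prf1 at 2.07 CPM and Mx1 at 1.16 CPM, clodronate mouse 3 low in Mmp19 at 2.93 CPM, clodronate mouse 4 high in Clec9a at 1.11 CPM, and clodronate mouse 5 high in Ccl7 at 7.17 CPM and Lctl at 2.79 CPM. In Prf1, Mx1 and Clec9a the other 4 clodronate mice were all at the floor of 1 CPM, so a value just above it is enough.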

How the results depend on the processing

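No gene passed an adjusted p of 0.05 in sedentary mice under any alternative that kept all 11 mice. Leaving out 1 mouse gave 0 to 38 genes (38 without clodronate mouse 1, all lower). In 2 combined settings chosen after seeing the data, 15 passed without that mouse at a common upper quartile. Without that scaling, 18 passed with both that mouse and PBS mouse 2 left out. Genes lower at an unadjusted p under 0.05 numbered 650 to 1091 with 1 mouse left out and 401 at a common upper quartile. Genes higher numbered 81 to 238 with 1 mouse left out (185 without PBS mouse 4, 238 without clodronate mouse 1), 187 with no filter (17825 genes), 75 at a mean of at least 5 CPM (10058 genes), 250 at a common upper quartile, and 354 and 189 in the 2 combined settings. The median over all genes was -0.15 to -0.10 with 1 mouse left out, and -0.0227 and -0.0400 at a common upper quartile with and without clodronate mouse 1. Fatty acid synthesis genes lower at an unadjusted p under 0.05 numbered 11 to 13 with 1 mouse left out, and their median was -1.79 to -1.24. They numbered 11 at a common upper quartile and 11 with the 11 sedentary mice alone. With scaling to assigned reads, without a variance trend or with array weights they numbered 12 each. General macrophage genes numbered 0 to 2 with 1 mouse left out (0 without PBS mouse 3 or 6 or clodronate mouse 1, 2 or 4, and 2 without PBS mouse 5), 2 at a pseudocount of 5, 0 at a common upper quartile, 3 with the 11 sedentary mice alone, 4 with array weights, 0 with the replicate block and 0 in both combined settings. In wheel mice 1 gene passed an adjusted p of 0.05 at a pseudocount of 5, 1 with no filter, 1 without a variance trend, 1348 with array weights and 0 to 2 with 1 sedentary mouse left out. The interaction had 1 gene with no filter and 380 with array weights. The share of reads assigned differed by -1.73 to -0.64 percentage points with 1 mouse left out. The cause of these shifts was not tested.

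Replicate numbers were not shown to pair mice: of 5 same-numbered pairs, deviations correlated at -0.295 to 0.565 (mean 0.151), 3 of 5 over 0.1, and 1 was best with its own number. With the replicate block 0 genes passed, and the block left 724 genes lower and 139 higher at an unadjusted p under 0.05.

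Among 160 named genes, 26 values of 8 genes had the other sign with mice left out and 6 values of 4 genes in other settings, and 46 values of 22 genes newly passed the adjusted threshold. Adgre1 was 0.0600 with the block and 0.0582 at a common upper quartile, C1qc 0.0019 and 0.0065, Mcpt4 0.0354 at a common upper quartile and Cx3cr1 -0.0147 at a pseudocount of 5. With 1 mouse left out Adgre1 ranged from -0.29 to 0.20, C1qc from -0.29 to 0.07, Csf1r from -0.25 to 0.0080, Csn3 from -0.0261 to 0.77, Cx3cr1 from -0.20 to 0.25 and Mcpt4 from -0.21 to 0.04. Without clodronate mouse 1 at a common upper quartile Adgre1 was 0.125, Csf1r 0.0360, C1qc 0.133, Cx3cr1 -0.0127 and Mcpt4 0.0315. Without both PBS mouse 2 and clodronate mouse 1 C1qc was 0.106, Cx3cr1 -0.0206, Mcpt4 0.0483, H2-Aa 0.0558 and Tcf7 0.0580, the last 2 at -0.48 to -0.06 and -0.72 to -0.03 with 1 mouse left out. At these depths a gene at the floor cannot be told from one with up to 13 to 20 reads.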

Other observations

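Genes that feed fatty acid synthesis were gathered into a list after the values of single members had been seen, so the counts describe and test nothing. All 14 of 14 genes of NADPH and acetyl-CoA supply were lower with clodronate, 11 at an unadjusted p under 0.05 in limma (6.67% of all genes on that side), with a median log2 difference of -0.58, and in the wheel mice 13 of 14 were lower, 10 at an unadjusted p under 0.05 (6.03% of all genes). Tkt, a transketolase of the pentose phosphate pathway, had 299 to 808 CPM with PBS and 767, 115, 117, 158 and 115 CPM with clodronate. Pdhb, of pyruvate dehydrogenase, had 143 to 334 CPM with PBS and 194, 81.5, 54.2, 68.4 and 108 CPM with clodronate. In both genes clodronate mouse 1 was inside the PBS range and the other 4 below it, as in fatty acid synthesis. Pdhx, of the same complex, did not overlap between the groups (24.7 to 45.2 CPM with PBS, 9.49 to 24.0 CPM with clodronate).

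Of 8 tested genes of triglyceride assembly, chosen in the same way, 6 were lower, 4 at an unadjusted p under 0.05 (again against 6.67% of all genes, as in the counts that follow), with a median of -0.42, among them Agpat2 (266 to 621 CPM with PBS, and 545, 111, 118, 168 and 207 CPM with clodronate). Of 11 insulin signaling genes 8 were lower, 0 at an unadjusted p under 0.05, with a median of -0.21. Of 13 genes of collagen processing 12 were lower, 2 at an unadjusted p under 0.05, with a median of -0.28, and of 11 tubulin genes 10 were lower, 2 at an unadjusted p under 0.05, with a median of -0.33.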
